A study of Mus musculus with 4 samples.

Results

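The 37 genes described here encode Eph receptors and ephrin ligands, Slit proteins and Robo receptors, and netrins with the Dcc, neogenin and Unc5 receptors. They were taken by name from 21887 protein-coding genes. The list does not hold every gene of these kinds, since Robo4, for example, is not on it. The rule uses no measured value, but the list was drawn up with earlier results of these data known. The genes fall into 6 families: 9 EphA receptors, 5 EphB receptors, 7 ephrins, 6 Slits and Robos, 4 netrins and 6 netrin receptors. Open chromatin had been profiled in 4 mouse libraries by Omni-ATAC-seq, an assay that tags accessible DNA with the Tn5 transposase. They comprise oligodendrocyte progenitor cells (OPCs) and oligodendrocytes (OLs) sorted for the surface antigen O1, each derived from 129O1 and from EpiSC5, which are lines of epiblast stem cells, with 1 library per line, so n = 2 per cell type. The strains behind the lines are 129SvEv and 129S1/SvImJ, but the labels do not state which belongs to which. The OPCs were made without SHH, were grown in bFGF and PDGFA at 20 ng/mL each, and were sorted for CD140a and NG2 after 4 passages before further expansion. Nothing in the labels says that the libraries came from independent cultures. In the reported fit, the spread behind each p-value comes from that between the 129O1 and EpiSC5 libraries of a cell type. It is not the gene's own spread alone, since limma draws it towards a trend over all tested genes. Differences between the lines and technical differences cannot be told apart in this spread. Values below are given in the order 129O1, EpiSC5.

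Eph receptors are receptor tyrosine kinases that meet their ephrin ligands on the surface of neighbouring cells, and signals pass into both cells. Ephrin-As are anchored by a lipid, whereas ephrin-Bs cross the membrane. Slits are secreted repellents read by Robo receptors, and netrins are secreted, laminin-related cues that attract through Dcc and repel through Unc5 receptors. All these systems are best known from axon guidance, and netrin and Slit cues also steer migrating OPCs, while Dcc has a further role in oligodendrocyte processes and paranodes.

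The deposited peak lists held 125002 to 152595 peaks over 35.0 to 44.1 Mb per library, without read counts, so depth is unknown. Oligodendrocyte markers followed the labels, with 6 of 9 tested genes higher in OLs and none lower. Of the 8 genes listed as OPC markers, among them Olig1, Olig2 and Sox10, only Sox10 differed and was higher in OLs. Markers of other cells moved as well. Of the 9 vascular and mesenchymal markers, 7 could be tested and 5 of those were lower in OLs. Their summed coverage was 12.9 and 12.1 kb in OPCs against 5.87 and 6.96 kb in OLs. Col1a2 had 1 listed peak in the 129O1 OPC library and none in the other libraries. Of 7 astrocyte markers 2 were lower (summed 15.5 and 16.1 kb against 12.8 and 13.1 kb), of 7 tested neuron markers 2 were lower (19.6 and 22.8 kb against 22.1 and 20.8 kb), and neither of the 2 tested microglia markers differed. The part of these cells in the differences below was not tested, and fewer cells of a type cannot be told apart from less open chromatin per cell.

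Of the 37 guidance genes, 12 differed between OPCs and OLs, more of them lower than higher in OLs. For each gene the base pairs covered by peaks were summed over the gene and 2 kb on either side and scaled to the mean list total, and OL was compared with OPC by limma over 14543 genes (threshold: adjusted p of 0.05). All 37 genes had enough coverage to be tested. In OLs, 3 were higher (Epha6, Epha1 and Ephb1) and 9 were lower (Unc5d, Epha2, Ntng1, Efna5, Epha3, Epha4, Ephb4, Robo2 and Slit3), where 11.0% of all tested genes were higher and 8.63% lower. Counted without a test, the OL libraries lay above both OPC libraries in 10 genes and below them in 13 by covered sequence (27.4% and 28.1% of all tested genes), and in 11 and 9 by number of peaks (28.6% and 21.0%). The median difference was 0.01 over the 37 genes and -0.02 over all tested genes, on the scale log2(covered bp + 200), which is used for every difference below. Fold changes of single genes are taken from these differences, 200 bp included, so they are not plain ratios of the kb values. Without the 129O1 OL library 1 gene was higher (Epha6), and without the EpiSC5 OL library 4 were lower. Without the 129O1 OPC library the genes called higher were Dcc, Neo1 and Unc5c, none of the 3 above. By number of peaks, or with 200 bp around each summit, 2 genes were called, Ntng1 and Unc5d, both lower. Without scaling to the list totals, which moved the median of all genes from -0.02 to -0.13, none were higher and 2 were lower (Epha3 and Ephb4), and among all genes called the share higher in OLs went from 56.1% to 33.8%.

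**Figure D1:**
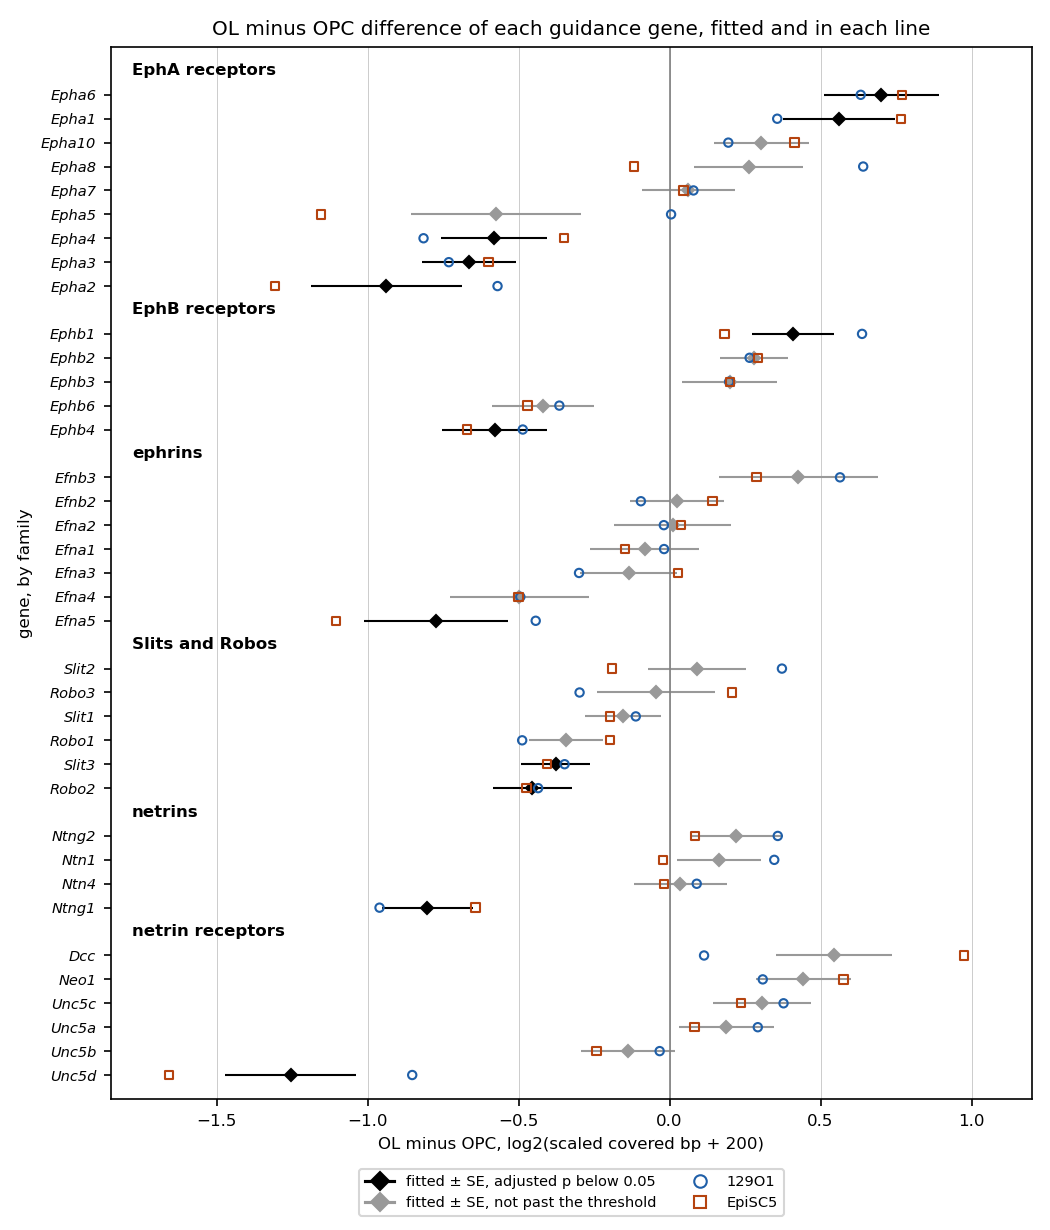
OL minus OPC difference of each of the 37 genes, by family, on the log2(scaled covered bp + 200) scale. Diamonds are fitted differences with their SE (black: adjusted p below 0.05), open circles are the 129O1 line and open squares the EpiSC5 line. The 12 black genes lie on the same side of 0 in both lines, 3 above it and 9 below it.

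Summed by family, the Slits and Robos, the ephrins and the EphA receptors had less covered sequence in OLs in both lines, and the EphB and netrin receptors had more. The 6 Slit and Robo genes had 43.4 and 42.8 kb of peaks in OPCs and 35.5 and 34.7 kb in OLs, which is 0.818 and 0.811 of the OPC value. The 5 EphB receptor genes had 25.0 and 24.4 kb in OPCs and 31.6 and 27.3 kb in OLs, or 1.27 and 1.12 times the OPC value. The ephrins lost as large a share as the Slits and Robos, at 0.834 and 0.794 of the OPC value. The EphA receptors stood at 0.914 and 0.892, although 4 of the 9 genes were higher and 3 lower in both lines (median difference 0.06). In all 4 of these families the OL libraries did not overlap the OPC libraries. Most of the ephrin loss lay in Efna5, with 6.09 and 4.47 kb in OPCs and 4.43 and 1.97 kb in OLs. Of the 7 ephrins, 3 were lower and 1 higher in both lines. Among the EphB receptors, Ephb1, Ephb2 and Ephb3 were higher in both lines, and Ephb4 and Ephb6 lower. Ephb1 and Ephb2 held most of the covered sequence of that family. The netrin receptors stood at 1.12 and 1.14 times the OPC value, and the netrins fell on either side of equality (1.03 and 0.908). By number of peaks, scaled to the mean length of the lists, the ratios of the Slits and Robos were 0.889 and 0.800 and those of the EphB receptors 1.27 and 1.14. The netrin receptors were at 1.16 in 129O1 and at 0.999 in EpiSC5 by this count. Without scaling the EphB ratios were 1.15 and 1.04 and those of the Slits and Robos 0.742 and 0.758. The netrins turned in 129O1, to 0.930, and the other families kept their side of 1 in both lines under both other scalings of covered sequence. No test was made of family sums, since 2 against 2 libraries cannot give an exact two-sided permutation p below 0.333.

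**Figure D2:**
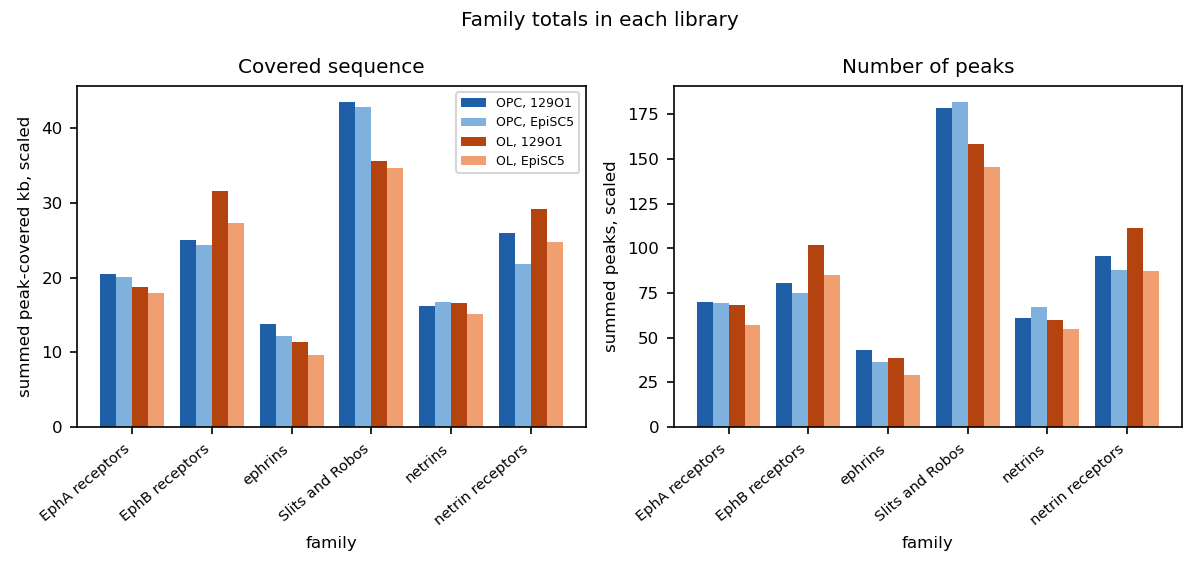
Summed peak-covered sequence in kb (left) and summed number of peaks (right) of each family, scaled to the list totals, in each of the 4 libraries (bars). By kb, the OL bars of the Slits and Robos, ephrins and EphA receptors are below both OPC bars, and those of the EphB receptors above both.

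Most promoters of these genes were open in both cell types. RefSeq windows of 250 bases before to 50 bases after a gene start (GRCm38.p6) matched 32 of the 37 genes, with 37 windows in all, and Efnb3, Slit1, Ntn1, Unc5d and Dcc were not matched. A peak of all 4 lists reached 26 windows (70.3%), where 53.5% of the 21263 windows of protein-coding genes did so. No window had peaks in both OL lists alone (0.423% of all windows), and 2 had peaks in both OPC lists alone (5.41%, against 2.08%), those of Ntng1 and of the outermost Robo2 start. In 3 windows, those of Epha6, Ntng2 and a middle start of Robo2, no list had a peak (8.11%, against 38.2%). The member windows held a median of 23 CpG pairs, against 13 in all windows, and 65.0% G and C bases, against 56.3%. The letters GGGCGG, searched on both strands like all that follow, were in 73.0% of them and in 46.2% of all windows, and CANNTG in 43.2% and 69.0%. The letters AACAAT or ACAATG, which can overlap each other, were in 8.11% and 16.3%, and TGANTCA in 0% and 6.99%. These matches describe the letters only.

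The Epha2, Slit3 and Robo2 starts are shown because their peaks differed between the cell types. Each line gives the 250 bases before the start from RefSeq (GRCm38.p6), read 5′ to 3′ along the gene, and capitals mark the bases under a peak in both OPC lists. They lie at chr4:141300971-141301220 (plus strand), chr11:35121206-35121455 (plus strand), chr16:74411826-74412075 (minus strand) and chr16:75447294-75447543 (minus strand). The inner Robo2 start, open in all libraries, is printed beside the outer one.
Epha2: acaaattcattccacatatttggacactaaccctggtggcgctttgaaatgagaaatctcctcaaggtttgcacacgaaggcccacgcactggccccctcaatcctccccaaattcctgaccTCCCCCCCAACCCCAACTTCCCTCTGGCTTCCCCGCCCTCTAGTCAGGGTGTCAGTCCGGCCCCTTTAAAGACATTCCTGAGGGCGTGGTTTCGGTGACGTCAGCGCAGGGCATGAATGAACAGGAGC
Slit3: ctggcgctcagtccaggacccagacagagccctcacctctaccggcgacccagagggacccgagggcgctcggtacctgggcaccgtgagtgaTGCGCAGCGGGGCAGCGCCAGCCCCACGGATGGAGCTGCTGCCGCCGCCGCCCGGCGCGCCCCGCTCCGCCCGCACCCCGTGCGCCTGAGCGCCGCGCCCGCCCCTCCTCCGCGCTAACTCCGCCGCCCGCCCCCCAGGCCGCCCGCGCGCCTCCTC
Robo2, inner start: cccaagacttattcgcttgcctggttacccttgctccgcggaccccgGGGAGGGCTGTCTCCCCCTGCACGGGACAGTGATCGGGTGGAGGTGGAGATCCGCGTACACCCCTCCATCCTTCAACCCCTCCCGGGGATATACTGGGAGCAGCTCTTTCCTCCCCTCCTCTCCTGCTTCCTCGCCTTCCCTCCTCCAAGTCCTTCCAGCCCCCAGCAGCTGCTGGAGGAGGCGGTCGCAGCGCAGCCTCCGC
Robo2, outer start: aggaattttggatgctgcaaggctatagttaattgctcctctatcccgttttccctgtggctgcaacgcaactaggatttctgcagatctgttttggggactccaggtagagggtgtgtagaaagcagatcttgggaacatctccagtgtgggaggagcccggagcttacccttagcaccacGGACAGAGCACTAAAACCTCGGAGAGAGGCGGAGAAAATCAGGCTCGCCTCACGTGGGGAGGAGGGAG

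In these 250 bases of Epha2, peaks covered 158 and 128 bases in OPCs and 64 and 0 in OLs. At the Slit3 start, which is rich in CpG pairs (35) and holds 6 matches of GGGCGG, they covered 250 and 157 bases in OPCs and 83 and 0 in OLs. The EpiSC5 OL list thus had no peak over either stretch, and the 129O1 OL list covered less of each than the OPC lists did. At the outer Robo2 start, 68 and 144 bases were covered in OPCs and none in OLs, whereas at the inner start 203 and 250 bases were covered in OPCs and 163 and 162 in OLs. In the Ntng1 window of 300 bases the OPC peaks reached 91 and 21 bases. With at least 150 bases of the window covered, or with only the top 50% of peaks by q value, 23 or 21 windows had a peak in all lists. Epha2 and Slit3 then had the window reached by both OPC lists and neither OL list. Efna5 joined them under the former setting and Efna4 under the latter, although peaks of all 4 full lists reached both windows. The Efna5 window had 155 and 151 bases covered in OPCs and 143 and 128 in OLs, on either side of the cutoff.

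**Figure D3:**
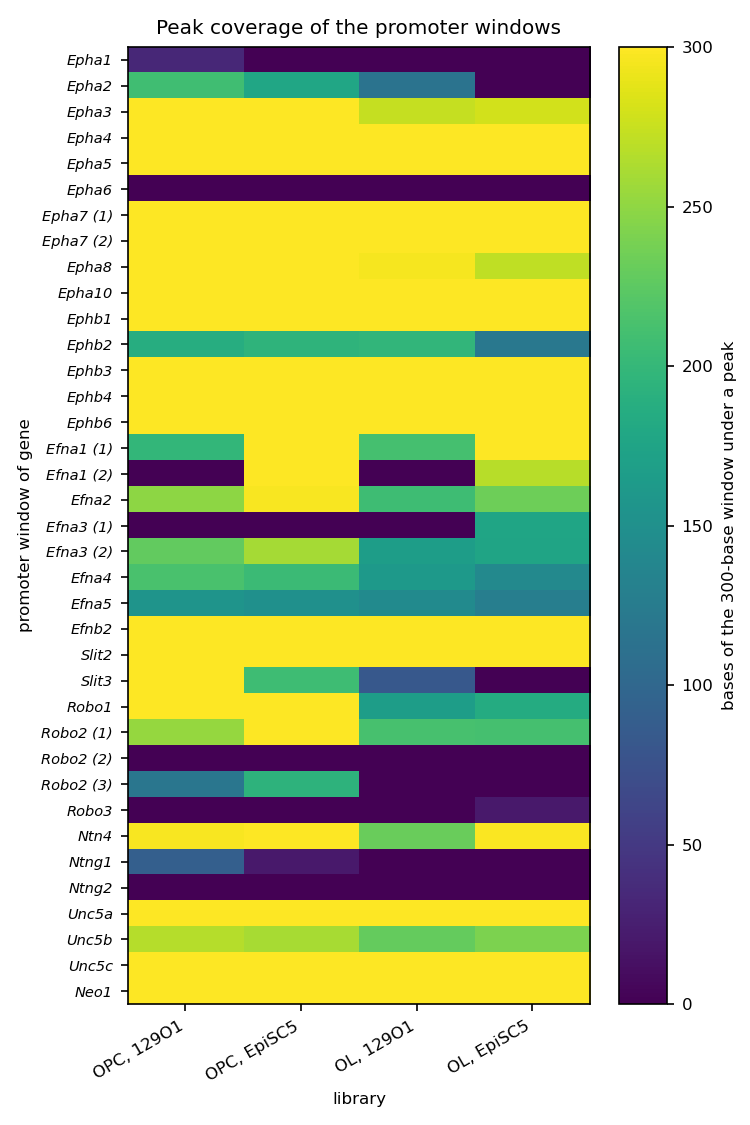
Bases of each 300-base promoter window under a peak (colour, 0 to 300) in the 4 libraries (columns), for the 37 windows of 32 genes (rows; several windows of a gene are numbered along the chromosome). Most rows are filled in all columns (26 windows), and Epha2, Slit3, Ntng1 and the third Robo2 window are filled in OPC columns more than in OL columns.

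Among the EphA receptors, Epha2, Epha3 and Epha4 lost coverage in OLs, and Epha1 and Epha6 gained it. Epha3, a receptor for ephrin-As (chromosome 16, 63543532 to 63864175), had 2.85 and 2.53 kb of peaks in OPCs and 1.63 and 1.60 kb in OLs. Both OL libraries lay below both OPC libraries, a 1.59-fold lower level in OLs (log2 -0.67, SE 0.16, limma adjusted p = 0.00528), and the call held without any 1 library. Its peaks, given unscaled as for every gene below, numbered 9 and 8 in OPCs and 6 and 5 in OLs. In the limma fit by number of peaks, which uses scaled numbers, the adjusted p was 0.121. Over the top 50% of peaks by q value the difference was -0.26 (adjusted p = 0.414). Epha4, which binds ephrins of both classes (chromosome 1, 77367182 to 77515107), had 4.81 and 5.42 kb in OPCs and 2.65 and 4.22 kb in OLs. It was lower in each line, more so in 129O1, by 1.5-fold on average (log2 -0.58, SE 0.18, adjusted p = 0.0252). Without the 129O1 OL library its difference was -0.27 (adjusted p = 0.390), and without the EpiSC5 OL library it was -0.90.

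Epha2, a receptor also known from epithelia and vessels (chromosome 4, 141301221 to 141329384), had 1.46 and 1.20 kb in OPCs and 0.919 and 0.365 kb in OLs. This was a 1.92-fold lower level (log2 -0.94, SE 0.25, limma adjusted p = 0.0120). Peaks over Epha2 numbered 3 and 4 in OPCs and 3 and 2 in OLs, the same in 129O1 and fewer in EpiSC5. By number of peaks the difference was -0.46 and was not called. The EpiSC5 OL library was the lowest: without it the difference was -0.44 (adjusted p = 0.166), without the 129O1 OL library it was -1.43, and without the 129O1 OPC library the adjusted p was 0.0529. Epha6 (chromosome 16, 59641433 to 60610911) is a long and sparsely covered gene, with 0.871 and 1.20 kb in OPCs and 1.46 and 2.19 kb in OLs. It rose 1.63-fold (log2 0.70, SE 0.19, adjusted p = 0.0140), and 21.1% of its covered sequence also lies in the region of Arl6. Its call was lost without the 129O1 OPC library (adjusted p = 0.118) and without the EpiSC5 OL library (log2 0.44, adjusted p = 0.184). Epha1 (chromosome 6, 42358487 to 42373314) had 0.867 and 0.687 kb in OPCs and 1.17 and 1.31 kb in OLs. On the fitted scale it rose 1.48-fold (log2 0.56, SE 0.18, limma adjusted p = 0.0385). Peaks over Epha1 numbered 5 and 3 in OPCs and 4 and 4 in OLs, and by peak number the difference was -0.07. Regions with a peak in every library went from 0.318 and 0.551 kb to 0.755 and 0.861 kb. A region with peaks in both OPC lists alone held 0.231 and 0.135 kb. The remaining regions held 0.318 and 0 kb in OPCs and 0.412 and 0.447 kb in OLs. The Epha1 call was lost without any 1 library, with adjusted p from 0.0558 to 0.316, and with 20 kb on each side (log2 0.09).

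The other 4 EphA genes did not pass the threshold. Epha5, a receptor for ephrin-As, had 3.26 and 2.67 kb in OPCs and 3.27 and 1.09 kb in OLs, so the lines differed (log2 0.00 and -1.15), and 60.4% of its covered sequence also lies in the region of Gm42163. Epha7 and Epha8 overlapped between the cell types, at log2 0.06 and 0.26. Epha10, a receptor without kinase activity, had 2.15 and 2.20 kb against 2.49 and 3.0 kb (log2 0.30, adjusted p = 0.201), with 46.2% of it shared with the regions of Cdca8 and Maneal.

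**Figure D4:**
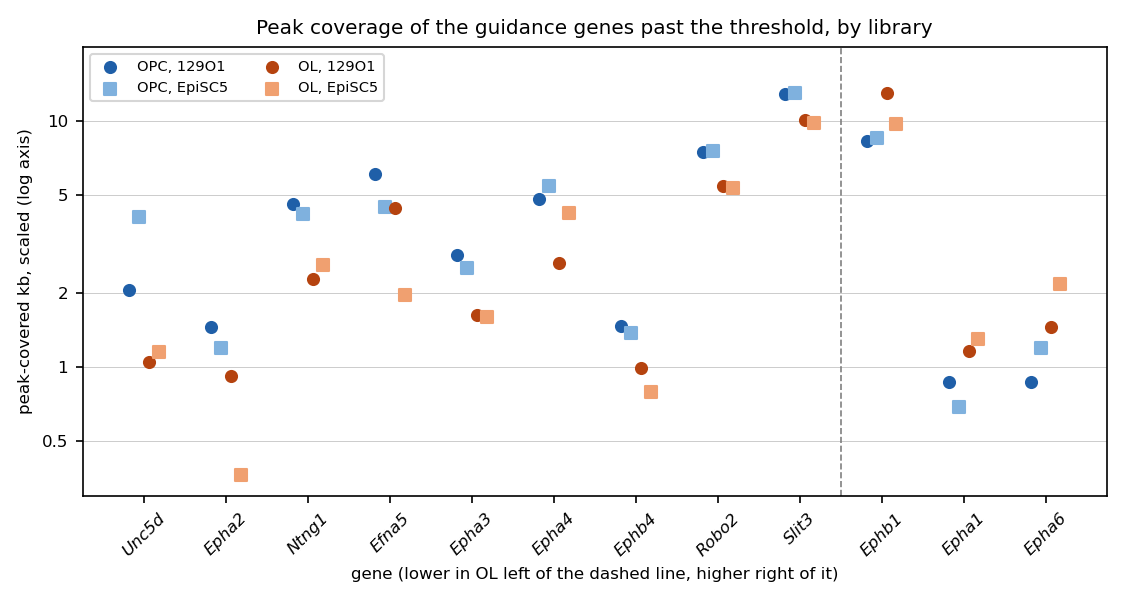
Peak-covered kb (scaled, log axis) in each of the 4 libraries for the 12 genes past the threshold, ordered by their difference. Both OL points lie below both OPC points for the 9 genes left of the dashed line and above them for the 3 genes right of it.

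Among the EphB receptors, Ephb1 gained coverage and Ephb4 lost it. Ephb1, a receptor of commissural and retinal axons (chromosome 9, 101922128 to 102354693), had 8.31 and 8.56 kb in OPCs and 13.0 and 9.73 kb in OLs. Both OL values were higher, that of 129O1 by far the more (log2 0.64 and 0.18), and the fitted rise was 1.33-fold (log2 0.41, SE 0.14, limma adjusted p = 0.0395). The call was lost in the fit blocked on cell line (adjusted p = 0.0858), without the 129O1 OPC library (adjusted p = 0.0529) and without the 129O1 OL library (log2 0.20, adjusted p = 0.451), and without the EpiSC5 OL library the difference was 0.62. Ephb4, the receptor of veins and a partner of ephrin-B2 (chromosome 5, 137350109 to 137374522), had 1.47 and 1.38 kb in OPCs and 0.994 and 0.794 kb in OLs. It was lower in both lines, by 1.49-fold (log2 -0.58, SE 0.17, adjusted p = 0.0236), with 4 and 3 peaks against 2 and 2. The Ephb4 call was lost without the 129O1 OPC (adjusted p = 0.172), the EpiSC5 OPC (0.102) or the EpiSC5 OL library (0.148), and its difference was -0.14 with 20 kb on each side.

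Ephb2 had the most peaks of the EphB genes, 39 and 33 in OPCs and 47 and 51 in OLs, over 11.5 and 10.8 kb and 13.8 and 13.2 kb. The groups did not overlap, but the difference of 0.28 did not pass the threshold (SE 0.11, limma adjusted p = 0.0922). Ephb3 differed by 0.20 (adjusted p = 0.441). Ephb6, which lacks kinase activity, had 1.31 and 1.58 kb in OPCs and 0.975 and 1.08 kb in OLs (log2 -0.42, adjusted p = 0.0936), and the fit blocked on cell line called it lower (adjusted p = 0.0446). In that fit 2 guidance genes were higher and 10 lower, against 11.0% and 8.98% of all genes.

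Of the listed ephrins, Efna5 alone passed the threshold. Efna5, the repulsive ligand of the visual map (chromosome 17, 62602957 to 62881317), had 6.09 and 4.47 kb in OPCs and 4.43 and 1.97 kb in OLs. The highest OL value was just under the lowest OPC value, and within each line the OL library had less, a 1.71-fold lower level (log2 -0.77, SE 0.24, limma adjusted p = 0.0271). The EpiSC5 OL library weighed most: without it the difference was -0.23 (adjusted p = 0.556), and without the 129O1 OL library it was -1.32. Peaks over Efna5 numbered 22 and 16 in OPCs and 17 and 10 in OLs. Efna4 had 1.04 and 0.778 kb against 0.680 and 0.492 kb (log2 -0.50, adjusted p = 0.147), but 76.4% of this sequence also lies in the region of Adam15. Efnb3 pointed the other way without passing, with 0.455 and 0.476 kb against 0.768 and 0.625 kb (log2 0.43, adjusted p = 0.302), 41.0% of it shared with the region of Wrap53. Efnb2, the arterial partner of Ephb4, overlapped between the groups, with 2.20 and 1.97 kb in OPCs and 2.05 and 2.19 kb in OLs (log2 0.02). Efna1, Efna2 and Efna3 lay between -0.14 and 0.01.

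Slit3 and Robo2 lost coverage in OLs. Slit3, which encodes a secreted repellent (chromosome 11, 35121456 to 35708507), had 12.9 and 13.0 kb in OPCs and 10.1 and 9.78 kb in OLs. The OPC libraries were close to each other and both OL libraries lower, by 1.30-fold (log2 -0.38, SE 0.11, limma adjusted p = 0.0239). Its peaks numbered 45 and 50 in OPCs and 42 and 45 in OLs, or 46.4 and 53.4 against 44.1 and 39.4 when scaled. The call was lost without any 1 library, at differences from -0.40 to -0.36. Robo2, a Slit receptor and the longest gene of the list (1555 kb, chromosome 16, 73891976 to 75447443), had 7.46 and 7.53 kb in OPCs and 5.47 and 5.37 kb in OLs. It was 1.37-fold lower (log2 -0.45, SE 0.13, adjusted p = 0.0181), alike in both lines, with 42 and 35 peaks against 28 and 28. The Robo2 call was lost without the 129O1 OL (adjusted p = 0.0718) or the EpiSC5 OL library (0.0912), and over the top 50% of peaks by q value its difference was 0.25 (adjusted p = 0.476).

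Robo1, the neighbour of Robo2 at a distance of 844 kb, pointed the same way without passing the threshold. It had 11.1 and 9.98 kb in OPCs and 7.84 and 8.67 kb in OLs (log2 -0.34, SE 0.12, limma adjusted p = 0.0575). Slit1 differed by -0.15, with 7.79 and 8.01 kb against 7.19 and 6.96 kb (adjusted p = 0.461). Slit2 and Robo3 overlapped between the cell types, at log2 0.09 and -0.05.

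Of the netrin genes, Ntng1 was lower in OLs. It encodes netrin-G1, a lipid-anchored relative of the netrins that does not bind Dcc (chromosome 3, 109780050 to 110149972), and had 4.62 and 4.17 kb of peaks in OPCs and 2.28 and 2.60 kb in OLs. Each OL library held less than either OPC library, a 1.74-fold lower level (log2 -0.80, SE 0.15, limma adjusted p = 0.00102). Peaks fell from 20 and 19 to 8 and 12, and Ntng1 was called lower by number of peaks as well and without any 1 library. Without scaling its adjusted p was 0.0562. Ntng2, its close relative, had 10 and 10 peaks in OPCs and 14 and 15 in OLs, over 2.3 and 2.78 kb and 3.01 and 2.95 kb (log2 0.22, adjusted p = 0.374). The netrin-1 gene Ntn1 had 6.71 and 6.79 kb in OPCs and 8.59 and 6.68 kb in OLs (log2 0.16, adjusted p = 0.487). Ntn4 overlapped between the groups (log2 0.04).

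Unc5d, which encodes a netrin receptor that also binds FLRT proteins (chromosome 8, 28646717 to 29219671), had the largest difference of the 37 genes in the fit over all 4 libraries. It had 2.06 and 4.08 kb in OPCs and 1.05 and 1.16 kb in OLs. The OL libraries were alike and low, whereas the OPC libraries differed from each other, and the level was 2.39-fold lower in OLs (log2 -1.25, SE 0.22, limma adjusted p = 0.000515). Peaks numbered 8 and 16 in OPCs and 3 and 5 in OLs. The call held without any 1 library and by number of peaks. Without the EpiSC5 OPC library the difference was -0.79, and without scaling its adjusted p was 0.0958.

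The other netrin receptors did not pass. Dcc, the attractive receptor (chromosome 18, 71253613 to 72351228), had 7.17 and 3.8 kb in OPCs and 7.78 and 7.67 kb in OLs, so the EpiSC5 OPC library stood apart from the other three (log2 0.54, SE 0.19, limma adjusted p = 0.0539). Neo1, which encodes neogenin, a receptor for netrins and RGM proteins, had 3.46 and 2.64 kb against 4.34 and 4.04 kb, with 8 and 7 peaks against 13 and 11 (log2 0.44, SE 0.16, adjusted p = 0.0541). Dcc, Neo1 and Robo1 are named because they were nearest to the threshold, a choice made after their values were seen. Unc5c had 7.04 and 5.44 kb against 9.21 and 6.45 kb, higher in OLs within each line but overlapping between the groups (log2 0.31, adjusted p = 0.213). Unc5a and Unc5b were at 0.19 and -0.14.

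Per unit of length, short genes were the most densely covered. Over the gene and its flanks, OPC peaks covered 135 bp per kb at Efna3, 106 at Efna1, 105 at Efna4 and 100 at Ephb3, all short genes, and 1.06 bp per kb at Epha6, 4.81 at Robo2, 4.98 at Dcc and 5.33 at Unc5d, all long genes. In OLs, Efna3 (121 bp per kb) and Ephb3 (116) were the highest, and Epha6 (1.87) and Unc5d (1.92) the lowest. In Unc5d the density fell from 5.33 to 1.92 bp per kb and in Ntng1 from 11.8 to 6.52, whereas in Ephb2 it was 57.6 in OPCs and 70.1 in OLs.

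Most regions over these genes, in every class, lay within the gene body. Merging the peaks of all lists gave 880 regions over the 37 genes, of which 198 had a peak in every library. Peaks in both OL lists and neither OPC list marked 138 (15.7%, called OL-only), and the converse marked 103 (11.7%, called OPC-only), against 16.8% and 8.84% of the 141580 regions over all protein-coding genes. Of the OL-only regions 127 and of the OPC-only regions 97 lay in the gene body, more than 1 kb from either end of the gene, as did 790 of all 880 regions, and none of the former and 1 of the latter reached a promoter window. Of the 198 shared regions, 27 reached a promoter window and 150 lay in the gene body. Shared regions were wider, with a median of 456.5 bp, than OL-only (240 bp) and OPC-only regions (232 bp).

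By family, the EphB receptors held 34 OL-only and 10 OPC-only regions, or 24.3% and 7.14% of their regions. The EphA receptors held 15 and 21 (13.4% and 18.8%), the Slits and Robos 43 and 45 (14.3% and 15%) and the ephrins 4 and 7 (7.27% and 12.7%). The netrin receptors, with 30 and 13 (17.2% and 7.47%), were near the shares over all genes, and the netrins held 12 and 7 (12.1% and 7.07%). Gene by gene, Ephb2 had 18 OL-only and 3 OPC-only regions, Ephb1 14 and 4, and Dcc 13 and 3. Neo1 had 6 OL-only regions and no OPC-only region, and Efna5 had 4 OPC-only regions and no OL-only region. Robo2 had 4 OL-only and 11 OPC-only regions, Ntng1 1 and 5, and Unc5d 1 and 4. Slit3 (11 and 13) and Robo1 (13 and 16) held many of each kind, so that Slit3, called lower in total, also had regions listed in OLs alone. Each of the 9 genes called lower held more OPC-only than OL-only regions. Of the 3 called higher, Epha6 and Ephb1 held more OL-only regions, and Epha1 had none and 1 OPC-only region. These classes use the same peaks as the covered sequence and are a description of it.

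**Figure D5:**
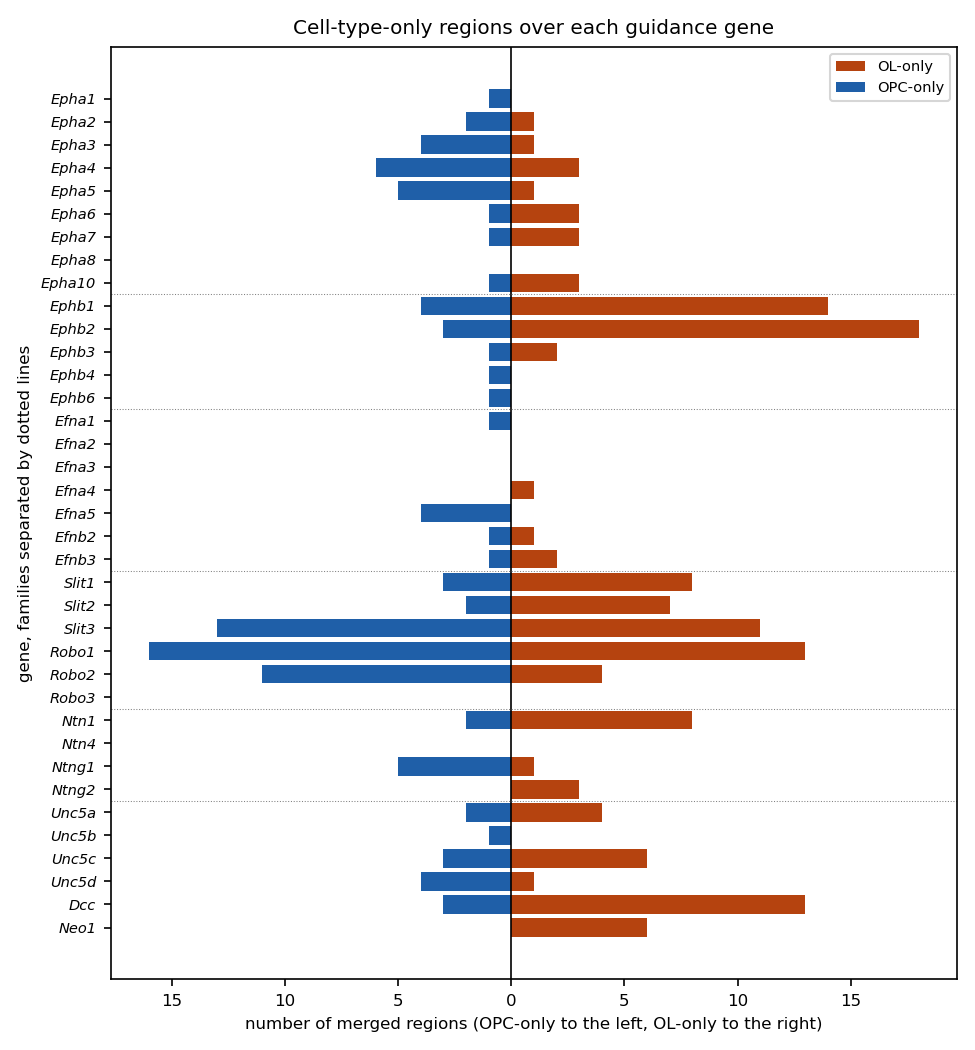
Number of OPC-only regions (blue, to the left) and OL-only regions (red, to the right) over each of the 37 genes, families separated by dotted lines. Ephb2, Ephb1 and Dcc extend mainly to the right (18, 14 and 13), Robo2 and Ntng1 mainly to the left (11 and 5), and Slit3 and Robo1 to both sides.

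The regions given here, in genes past the threshold, are each the largest cell-type-only region of their gene by unscaled covered sequence. All were OPC-only. All but that of Ephb1 lay in genes called lower in OLs from the same covered sequence, so their direction is not a separate result. Without scaling, the OPC lists also covered more sequence than the OL lists of the same line (38.6 and 44.1 Mb against 35.0 and 41.2 Mb). The largest lay in Ephb1, although that gene was higher in OLs, at chr9:102216794-102217483, 138 kb into the gene, with peaks of 540 and 678 bp in OPCs. Summed and scaled, the OL-only regions of Ephb1 held more, 4.00 and 3.12 kb in OLs, than its OPC-only regions, 0.967 and 1.17 kb in OPCs. In Epha3 the region at chr16:63658335-63659010, 206 kb from the start, had peaks of 558 and 618 bp, with an enrichment over background of 11.2-fold and 13.6-fold in the authors' lists. The Epha4 region (chr1:77409999-77410730, 105 kb from the start) had 421 and 732 bp, and the Ntng1 region (chr3:109936054-109936607, 214 kb from the start) 436 and 540 bp. The Efna5 region differed in place, since it lay 1.01 kb before the start (chr17:62882085-62882579), with peaks of 401 and 459 bp and low enrichments of 3.43-fold and 3.09-fold. The Unc5d region (chr8:28744124-28744882) had 759 bp in EpiSC5 but 78 bp in 129O1.

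Genes that act downstream of or beside these receptors moved mostly upward where they moved. The list holds 47 genes, among them GTPase regulators, kinases, adaptors and co-receptors, and all were tested. In OLs 9 were higher and 2 lower, against 11.0% and 8.63% of all genes, and the median was 0.07. Chn2, which encodes the Rac regulator beta-chimaerin, had 6.71 and 6.69 kb in OPCs and 13.8 and 14.6 kb in OLs, a 2.08-fold higher level (limma adjusted p = 9.58e-06). Its relative Chn1, which encodes alpha-chimaerin, an effector of Epha4, went the opposite way, from 5.31 and 4.70 kb to 3.33 and 3.35 kb, 1.47-fold lower (adjusted p = 0.0102). Neither gene overlapped between the cell types. Anks1, an adaptor of Eph receptors, rose 1.53-fold (9.06 and 7.56 kb against 14 and 11.6 kb, adjusted p = 0.00252). Ptk2, which encodes focal adhesion kinase, a partner of Dcc, rose 1.5-fold (5.46 and 6.14 kb against 7.90 and 9.72 kb, adjusted p = 0.00574). Srgap2, a GTPase-activating protein of the Robo pathway, fell 1.37-fold (10.3 and 8.86 kb against 6.40 and 7.43 kb, adjusted p = 0.0190). Without the 129O1 OPC, the 129O1 OL or the EpiSC5 OL library 7 of the list were called, and without scaling none.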

How the data were processed

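The deposited files are MACS2-style peak lists, 1 per library, so the authors called peaks in each library separately. The submitters' processing notes name the build mm10 and, as tools, MACS2, Picard, Bowtie2 2.3.2 and Trim Galore 0.3.1. Not given in the sources used here are the threshold, duplicate handling and any Tn5 shift. Deposited columns hold peak positions, a score of 10 times the −log10 q, an enrichment given as a linear fold, and −log10 p and q values (the lowest −log10 q per list was 3.00 to 3.03). A fold belongs to its peak and list. A missing peak means that none passed the threshold.

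Gene intervals came from RefSeq GRCm38.p6 and were extended by 2 kb. Covered base pairs were scaled to the mean list total, and genes with a mean of at least 500 bp were compared on log2(bp + 200) with limma 3.58.1 in R 4.3.3 (trend, two-sided, Benjamini-Hochberg over all tested genes). With the added 200 bp, differences and fold changes on this scale understate changes of thinly covered genes. The fit was tested on simulated data. Lists overlapped where at least 1 bp was shared. All listed genes past the threshold were named with their values. Also given were 6 regions, each the largest cell-type-only region of its gene by unscaled bp, and up to 3 signalling genes per direction. The genes and lists were chosen with earlier results of these data known. The fit reported had no block. Libraries of the same line pair by cell line: over 14543 genes the OPC and OL differences between lines correlated at r = 0.287, and the block was run as an alternative. Other alternatives changed the scaling, measure, pseudocount, filter, flanks, threshold or libraries.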

Additional observations from a re-analysis of the deposited data

Results flagged for a closer look

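In 9 of the 37 genes the OL minus OPC difference had opposite signs in the lines. With 1 library per cell type and line, the difference between the lines was not tested, and small values of either sign occur readily. The EpiSC5 difference minus the 129O1 difference, on the log2 scale, was -1.16 for Epha5 (0.00 in 129O1 and -1.15 in EpiSC5), -0.76 for Epha8 (0.64 and -0.12) and -0.56 for Slit2 (0.37 and -0.19). For Robo3 it was 0.51 (-0.30 and 0.21), for Ntn1 -0.37 (0.35 and -0.02) and for Efna3 0.33 (-0.30 and 0.03). Efnb2 (0.24), Ntn4 (-0.11) and Efna2 (0.06) showed the smallest gaps. None of the 9 genes passed the threshold between the cell types.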

How the results depend on the processing

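The counts given first are genes called among all genes, then guidance genes higher and lower, then signalling genes called, which were 2857, 3, 9 and 11. Without scaling to the list totals they were 583, 0, 2 and 0, and scaling by median of ratios gave 1924, 0, 3 and 4. Counting peaks gave 560, 0, 2 and 2, and with 200 bp around each summit 742, 0, 2 and 5. The top 50% of peaks by q value gave 1632, 1 (Ntn1), 4 and 5, no filter on coverage 2168, 0, 4 and 7, a mean coverage of at least 1000 bp 5 higher guidance genes, and 20 kb on each side 1. Leaving out 1 library at a time gave 2021 to 2298 genes, 1 to 3 guidance genes higher (Epha6 alone without the 129O1 OL library, and Dcc, Neo1 and Unc5c without the 129O1 OPC library), 4 to 9 lower (4 without the EpiSC5 OL library) and 7 to 9 signalling genes. In these fits the lone library of a cell type is assumed to vary like the other cell type. Pseudocounts of 50 or 1000 bp, and no flanks, kept each count within 1.5 times. The genes called still changed without flanks: Ephb1, Efna5 and Slit3 were lost and Ephb4 was not tested, while Neo1 (higher) and Robo1 (lower) were called. With the cell line as a replicate block the counts were 2908, 2, 10 and 10. The block removed the Ephb1 call and added that of Ephb6, and it changed no other call among the 37 genes. Of the 16 alternatives, Ntng1 was called in 15, Unc5d in 14 and Epha3 in 13. Signs turned for Epha1 by number of peaks (-0.0726) and with summit windows (-0.0725), and for Robo2 with the best 50% (0.25). The cause was not tested.

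OL-only, OPC-only and shared regions of the guidance genes numbered 77, 53 and 91 in the best 50% of the lists, where fewer peaks enter. Shared regions were 121 when a peak had to cover 50% of a region. Leaving out 1 library at a time, chosen after seeing the data, gave 155 to 223 OL-only, 124 to 198 OPC-only and 215 to 226 shared regions, and 26 to 28 promoter windows with a peak in all lists. A peak in 1 library of a cell type then suffices. The lists give no depth, which limits how small a peak could be listed.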
